A study of Mus musculus with 9 samples.

Results

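The Notch receptors Notch1, Notch2, Notch3 and Notch4, the ligands Jag1, Jag2, Dll1 and Dll4, and the target genes Hey1 and Hey2 were followed through single-nucleus RNA sequencing (sNuc-seq) of the mouse heart. These 10 genes were chosen by name from the 23747 genes of the expression tables, and their levels were read by cell type, by endothelial subtype and by mouse. Nuclei came from 9 C57BL/6 mice aged 8 weeks, 3 in each group, and all heart tissue lay below the ligation site. Sham mice were given vehicle by gavage for 7 days and were then operated on without ligation of the left anterior descending coronary artery (LAD). I/R mice were given the same vehicle for 7 days, then 30 min of LAD ligation and 24 h of reperfusion. SBP mice were given Shexiang Baoxin Pill, which the labels call MUSKARDIA, over 7 days, ahead of an ischemia and reperfusion like that of the I/R mice. No mouse was given the pill without ischemia, so an effect of the pill on the uninjured heart could not be read.

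Notch signaling passes between cells that touch. A ligand of the Jagged or Delta-like family on one cell binds a Notch receptor on its neighbour, proteases then cut the receptor, and the freed inner part enters the nucleus, where it joins the DNA-binding protein RBPJ and switches on targets such as the Hes and Hey repressors. In blood vessels, Dll4 and Notch1 restrain sprouting and Notch activity favours arterial identity, Jag1 on endothelium signals to Notch3 on smooth muscle cells and pericytes, and Notch1 in the endocardium shapes valves and trabeculae during development. Hey1 and Hey2 are transcriptional repressors, known from arterial endothelium and from the ventricular myocardium. Notch2 is known in B cells and in myeloid cells.

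The 9 libraries held 49171 nuclei and 135423853 UMIs (unique molecular identifiers, each a captured transcript), with 10329520 to 18205985 UMIs and 4576 to 6418 nuclei a mouse and a median of 1540 to 2031 UMIs a nucleus. After 123 marked doublets were removed, 10531 cardiomyocyte, 13441 endothelial, 14112 fibroblast, 9556 myeloid, 200 smooth muscle and pericyte, 770 T cell, 334 B cell and 104 Schwann nuclei were named from marker genes. So few nuclei were marked that other doublets may remain among them. Endothelial nuclei divided into 7867 capillary, 3870 endocardial, 759 arterial and 854 lymphatic nuclei, and 91 led by Csf3r, Cd300lf and Il1b stayed unnamed. No venous cluster was found. The larger cluster named endocardial had a mean marker score of 1.73 for endocardial and 0.873 for venous genes. A smaller one of 115 nuclei, before doublets were removed, scored 0.391 for endocardial genes. Endocardial levels may therefore include venous nuclei. The library of I/R replicate 1 stood apart: 78.5% of its cardiomyocyte nuclei lay in a cluster that held 87.4% to 94.5% in sham mice and 0.106% to 4.02% in the other I/R mice. It held 0.850% to 20.8% in SBP mice. This library had the most myeloid nuclei, 2299 against 1405 and 1034 in the other I/R mice. Of these, 72.2% lay in a Gpnmb-led cluster, described below, against 64.1% and 42.8%. Of its fibroblasts, 33.4% lay in a Tnc-led cluster, against 29.2% and 8.66% in the other I/R mice. In the fibroblast cluster most common in sham mice it had 24.9%, against 3.05% and 1.00%. The member pairs called without this library are listed, and values without it are given for some of the results. Transcripts of other cells were present in every type: 9 cardiomyocyte markers summed to 7826 to 8497 CPM (the UMIs of a gene per 1000000 UMIs of that cell type in that mouse) in myeloid nuclei of sham mice, 2175 to 3510 CPM in I/R mice and 2378 to 3016 CPM in SBP mice. Low member levels were therefore not read as expression, and 290 barcodes occurred in more than 1 library.

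The 10 genes gave 337 to 18215 UMIs each in all nuclei. Jag1 lies at chr2:137081456-137116644 on the minus strand of GRCm38, Dll4 at chr2:119325784-119335962 on the plus strand, Notch3 at chr17:32120820-32166852 on the minus strand and Hey2 at chr10:30832359-30842801 on the minus strand. An antisense gene, Gm17276, overlaps Notch3 on the other strand and was counted separately. Any effect of it on the Notch3 counts was not tested. Promoter windows from 250 bases before to 50 bases after the start were taken from RefSeq (GRCm38.p6), which matched 9 of the 10 genes. No window was found for Hey1, so it was not searched. The DNA word bound by RBPJ, GTGGGAA or its reverse TTCCCAC, was searched on both strands and was found in 6.38% of 32851 promoters. Among the 9 members searched it was found in the window of Hey2 alone, with 2 matches that began 207 and 4 bases before the start, and 0.256% of all promoters held at least 2. A match describes the letters and not a binding site or a cause, and no match says only that these letters are not in this window. The windows of Hey2, which holds the word, and of Jag1, Dll4 and Notch3, whose levels are the subject of the group comparisons, are shown 5′ to 3′ on the strand of the gene, with the RBPJ word in capitals. They cover chr10:30842734-30843033 (Hey2, minus strand), chr2:137116471-137116770 (Jag1, minus strand), chr2:119325534-119325833 (Dll4, plus strand) and chr17:32166841-32167140 (Notch3, minus strand). Their GC content was 72.0% for Hey2, 55.7% for Jag1, 63.7% for Dll4 and 70.0% for Notch3, against a median of 52.7% over all promoters.
Hey2: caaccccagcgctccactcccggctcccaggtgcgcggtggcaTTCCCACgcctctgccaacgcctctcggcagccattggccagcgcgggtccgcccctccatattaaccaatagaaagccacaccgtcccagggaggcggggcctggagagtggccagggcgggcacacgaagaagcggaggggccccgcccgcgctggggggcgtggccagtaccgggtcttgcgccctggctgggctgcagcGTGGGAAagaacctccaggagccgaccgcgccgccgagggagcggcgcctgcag
Jag1: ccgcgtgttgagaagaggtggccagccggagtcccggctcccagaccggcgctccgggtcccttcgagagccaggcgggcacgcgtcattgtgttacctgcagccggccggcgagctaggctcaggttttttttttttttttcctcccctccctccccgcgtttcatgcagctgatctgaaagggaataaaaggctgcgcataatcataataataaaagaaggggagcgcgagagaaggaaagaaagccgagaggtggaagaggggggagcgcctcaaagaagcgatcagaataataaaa
Dll4: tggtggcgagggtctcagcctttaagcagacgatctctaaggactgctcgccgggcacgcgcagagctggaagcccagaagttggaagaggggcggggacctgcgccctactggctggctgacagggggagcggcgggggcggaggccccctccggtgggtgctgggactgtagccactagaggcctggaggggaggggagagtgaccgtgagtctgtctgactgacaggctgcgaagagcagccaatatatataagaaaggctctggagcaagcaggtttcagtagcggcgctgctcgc
Notch3: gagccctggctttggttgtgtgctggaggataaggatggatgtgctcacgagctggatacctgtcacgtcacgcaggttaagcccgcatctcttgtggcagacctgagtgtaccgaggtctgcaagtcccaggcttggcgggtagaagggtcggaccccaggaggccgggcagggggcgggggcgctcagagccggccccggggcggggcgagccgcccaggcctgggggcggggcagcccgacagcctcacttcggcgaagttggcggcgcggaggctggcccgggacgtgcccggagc

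The ligands were highest in arterial endothelium, a subtype of 61 to 119 nuclei a mouse. Jag1, the Jagged ligand of arterial endothelium, stood at 529 ± 111 CPM there (SD, n = 9 mice, 598 UMIs), 4.73 times its mean in smooth muscle and pericyte nuclei (112 ± 49.7 CPM), and the ranges of the 9 mice did not overlap. When each nucleus was typed by its own marker score and not by its cluster, the arterial level was 265 CPM. Below these, Jag1 ran at 78.9 ± 24.6 CPM in lymphatic, 68.6 ± 15.5 CPM in capillary, 68.0 ± 18.4 CPM in fibroblast, 59.1 ± 30.6 CPM in myeloid and 56.2 ± 18.4 CPM in endocardial nuclei. These levels overlapped: lymphatic was above capillary in 7 of 9 mice, capillary above fibroblast in 5 and fibroblast above myeloid in 4. Cardiomyocyte nuclei had the lowest level of Jag1, 4.23 ± 1.14 CPM. Jag1 was also the ligand most spread over cell types, with 33.6% of its UMIs in endothelial, 36.8% in fibroblast and 22.0% in myeloid nuclei. UMI levels of different genes were not compared with each other.

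Jag2, the other Jagged ligand, stood at 264 ± 79.9 CPM in arterial nuclei and at 105 ± 19.8 CPM in capillary nuclei (n = 9), without overlap between mice, and the arterial level was 164 CPM with typing by marker score. The capillary level was in turn above that of smooth muscle and pericyte nuclei (26.7 ± 19.2 CPM) in every mouse, again without overlap. In endocardial nuclei Jag2 was near the cardiomyocyte level, 9.51 ± 4.02 against 8.83 ± 2.76 CPM, and endocardial was the higher in 4 of 9 mice.

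The Delta-like ligands were likewise highest in arterial nuclei by their means. Dll4, the ligand of sprouting and arterial endothelium, stood at 103 ± 33.0 CPM in arterial and 34.2 ± 20.4 CPM in capillary nuclei, with the arterial level higher in 9 of 9 mice although the ranges overlapped, and the arterial level was 67.2 CPM with typing by marker score. Dll4 was at 28.8 ± 12.2 CPM in lymphatic and 7.05 ± 3.30 CPM in endocardial nuclei. Dll1 gave 337 UMIs, of which 84.9% lay in endothelial nuclei, and its levels of 24.0 ± 18.0 CPM in arterial, 17.9 ± 9.96 CPM in lymphatic, 13.4 ± 6.33 CPM in capillary and 9.85 ± 5.09 CPM in endocardial nuclei overlapped from each to the next. No UMI of Dll1 was seen in T cell, B cell or Schwann nuclei, which by counting error allows up to 3.29, 8.33 and 16.1 CPM.

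**Figure D1:**
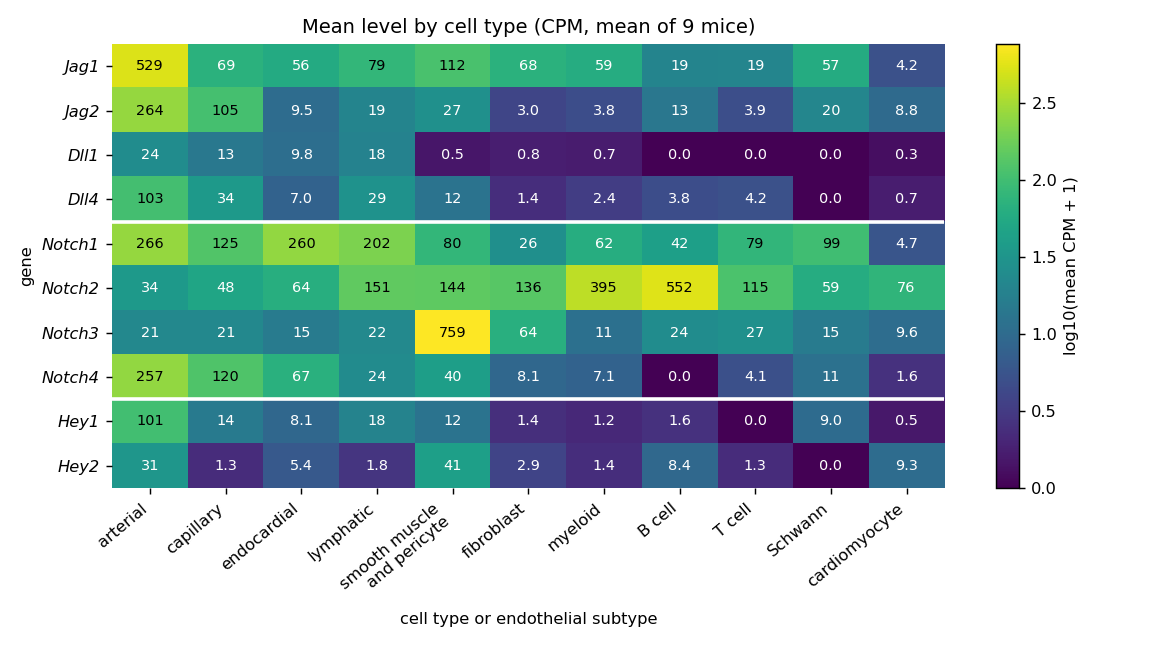
Mean level of the 10 genes (rows) in 11 cell types and endothelial subtypes (columns), in CPM over 9 mice, which is printed in each cell and coloured as log10(mean CPM + 1). The 4 ligands, Notch1, Notch4 and Hey1 have their highest mean in arterial endothelium, Notch3 and Hey2 in smooth muscle and pericyte nuclei and Notch2 in B cell nuclei, followed by myeloid nuclei.

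The 4 receptors differed in where they were highest. Notch1 was at 266 ± 59.4 CPM in arterial and 260 ± 57.0 CPM in endocardial nuclei, an order that held in 5 of 9 mice, and at 202 ± 47.8 CPM in lymphatic and 125 ± 11.9 CPM in capillary nuclei. Notch1 in cardiomyocyte nuclei was 4.68 ± 0.972 CPM, below the fibroblast level of 26.0 ± 8.73 CPM without overlap. Notch4, a receptor known from endothelium, fell in steps from arterial (257 ± 48.1 CPM) to capillary (120 ± 28.7 CPM) to endocardial nuclei (66.6 ± 18.1 CPM), each step seen in 9 of 9 mice and the first without overlap. Lymphatic nuclei stood lower in Notch4, at 23.7 ± 13.2 CPM, while their Notch1 was above the capillary level in 8 of 9 mice.

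Notch3 and Notch2 had their highest levels outside the endothelium. Notch3, the receptor of mural cells, reached 759 ± 260 CPM in smooth muscle and pericyte nuclei (935 UMIs in 200 nuclei), 11.8 times the fibroblast level of 64.0 ± 30.3 CPM and without overlap. With typing by marker score this level was 249 CPM. By number of transcripts, fibroblasts nevertheless held 46.7% of all Notch3 UMIs and smooth muscle and pericyte nuclei 23.2%. Notch2 was at 552 ± 271 CPM in B cell nuclei, where its 192 UMIs left mice between 87.9 and 860 CPM, and at 395 ± 44.9 CPM in myeloid nuclei, with B cells the higher in 6 of 9 mice. The myeloid level of Notch2 lay above that of lymphatic endothelium, 151 ± 23.4 CPM, without overlap, and the lowest was in arterial endothelium at 34.1 ± 18.5 CPM. Notch2 thus had its lowest mean in the subtype in which Notch1 and Notch4 had their highest means. Its capillary level, 48.2 ± 11.9 CPM, was above the arterial level in 7 of 9 mice, with overlap.

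Of the targets, Hey1 was at 101 ± 29.1 CPM in arterial nuclei, 5.45 times the lymphatic level of 18.4 ± 8.68 CPM, and above it in every mouse without overlap, and the arterial level was 51.9 CPM with typing by marker score. Capillary nuclei followed at 13.9 ± 5.52 CPM, and endocardial nuclei were at 8.10 ± 2.67 CPM. Hey2 was at 41.5 ± 37.6 CPM in smooth muscle and pericyte nuclei and 31.3 ± 19.6 CPM in arterial nuclei, from 49 and 34 UMIs, and this order held in 5 of 9 mice. Most Hey2 transcripts, 68.5%, lay in cardiomyocyte nuclei, which gave 573 UMIs at 9.30 ± 3.15 CPM. These nuclei also held 59525291 of the 134659593 UMIs of all genes, and Hey2 over all nuclei was at 6.18 ± 1.96 CPM.

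**Figure D2:**
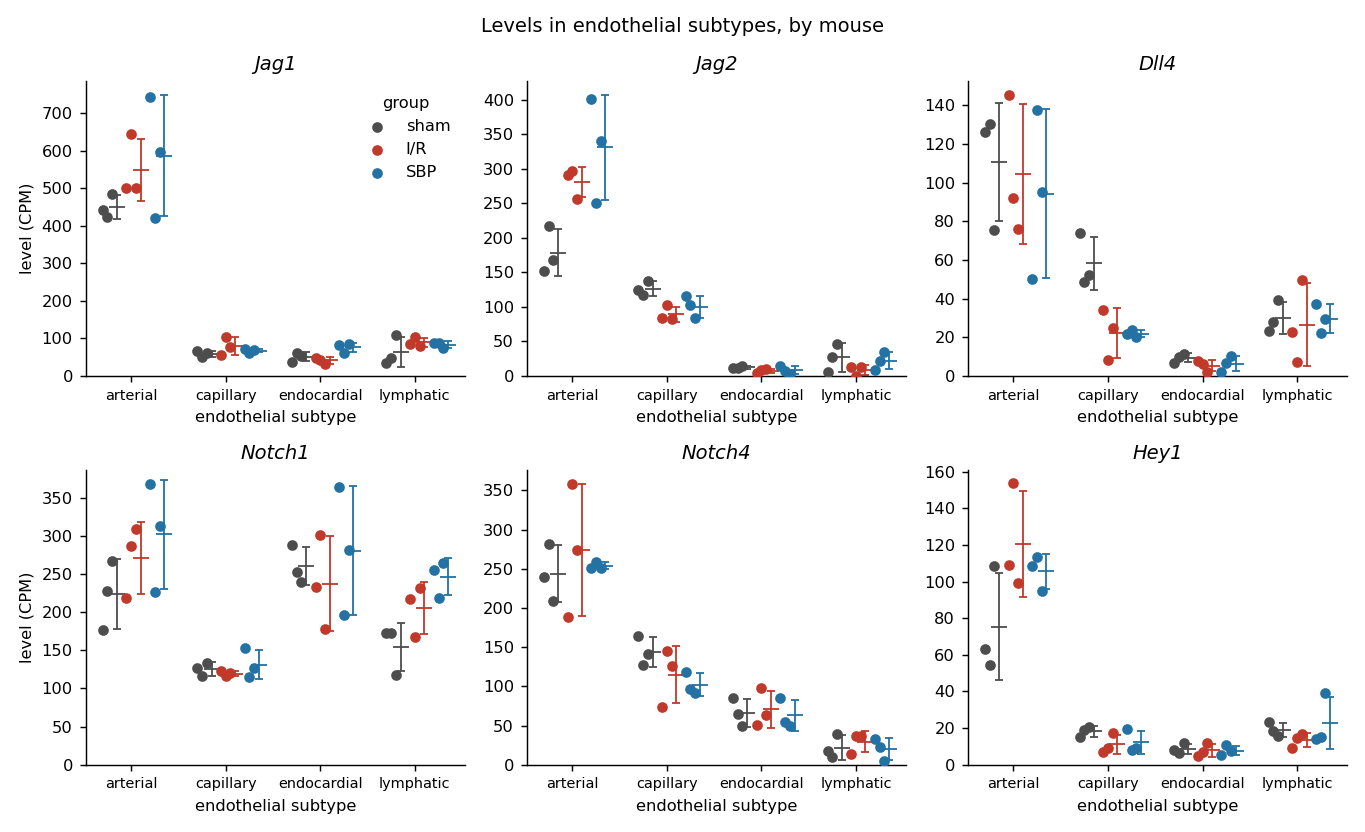
Level in CPM of Jag1, Jag2, Dll4, Notch1, Notch4 and Hey1 in the 4 endothelial subtypes, with a point for each of 9 mice coloured by group and a bar with its error for the mean ± SD. Arterial points of Jag1, Jag2, Notch4 and Hey1 lie above all points of the other subtypes, while arterial and endocardial points of Notch1 mix.

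The genes nearest to the members in their pattern over the 11 types were looked up among 11237 genes by Pearson's r of the mean log2(CPM + 1), which is a description across types from the same libraries. For Jag1 these were Acvrl1 (r = 0.953), Apba1 and Maoa, and for Jag2 they were Rasd1 (r = 0.967), Pdgfd and Tspan7. Dll4 was nearest to Stmn2 (r = 0.984), Btnl9 and Eva1a, and Dll1 to Sema3f (r = 0.987), Ifi44 and Exoc3l. For Notch1 they were Arhgap31 (r = 0.956), Klf8 and Plxnd1, and for Notch4 Tinagl1 (r = 0.978), Rapgef3 and Id1. Notch2 was nearest to Sh3bp2 (r = 0.918), Snx8 and Bmp2k, and Notch3 to Gm30835 (r = 0.980), the smooth muscle light chain gene Myl9 and Kcnab1. Hey1 was nearest to Pcmtd1 (r = 0.950), then to Stmn2 (r = 0.947) and Gm30003. Hey2 had no close neighbour, with Arhgap44 at r = 0.842, then Fads3 and Ccdc3. Stmn2 and Btnl9 were among the markers that named the subtypes.

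Between I/R and sham, 2 of the 54 pairs of member and cell type that could be tested passed the test. Jag1 rose in myeloid nuclei and Notch3 fell in fibroblasts. The other 26 pairs had too few UMIs to be tested. UMIs were summed per mouse and cell type and tested on the log2(CPM + 1) scale with limma, with p-values adjusted over all genes of that type and contrast, and a gene was called at an adjusted p of 0.05 with a log2 fold change beyond 0.25. Over all genes and the same 8 types and subtypes 5.92% of 77264 pairs were called. An unadjusted p under 0.05 (limma) was reached by 13 of the 54 member pairs, and by 12.6% to 32.4% of all genes tested, depending on the type. The 3 I/R mice and the 3 sham mice did not overlap in 13 of the 54 pairs (24.1%), 5 higher and 8 lower in I/R, against 22.6% of all pairs, a share near the background. Without I/R replicate 1, 8 member pairs were called: Jag1 in myeloid nuclei higher, and lower Notch3 in fibroblast, cardiomyocyte, endothelial and capillary nuclei, Dll4 in endothelial and capillary nuclei and Dll1 in capillary nuclei. The share of all genes called is given for the main fit only. Capillary nuclei are also counted among the endothelial ones, so these pairs are not separate findings.

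Jag1 in myeloid nuclei was 27.2, 12.0 and 23.3 CPM in sham mice 1 to 3, 56.9, 78.1 and 83.8 CPM in I/R mice and 81.1, 94.6 and 75.2 CPM in SBP mice. All 6 mice with ischemia lay above all 3 sham mice, and I/R and SBP mice overlapped. Jag1 rose by 1.82 ± 0.27 (log2, SE) from sham to I/R (limma, adjusted p = 0.000953), in a cell type in which 10.2% of 10910 genes were called higher and 17.7% were called in either direction. With a mouse left out or another processing setting, but no restriction to a cluster, the log2 change ran from 1.48 to 2.04 with an adjusted p of 0.000484 to 0.00473.

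The makeup of the myeloid nuclei moved with the same comparison. A cluster led by Gpnmb, Adam8, St18 and Arg1 held 1.51% to 2.32% of myeloid nuclei in sham mice, 42.8% to 72.2% in I/R mice and 40.5% to 65.8% in SBP mice, while a cluster led by Cd163, a marker of resident macrophages, held 89.4% to 94.2% in sham, 16.1% to 49.5% in I/R and 25.0% to 51.2% in SBP mice. The clusters were built without the 10 members but from all groups together, so these shares describe the clustering. Within the Cd163-led cluster, Jag1 was 30.5, 12.1 and 24.6 CPM in sham, 28.9, 37.5 and 38.7 CPM in I/R and 37.8, 24.1 and 20.3 CPM in SBP mice. The groups overlapped there, and the log2 difference of 0.71 ± 0.35 between I/R and sham was not called (limma, adjusted p = 0.312). Within the Gpnmb-led cluster Jag1 was 69.7, 113 and 146 CPM in I/R mice and 158, 145 and 168 CPM in SBP mice, and the sham mice had too few nuclei there for a test. Jag1 was higher in the Gpnmb-led than in the Cd163-led cluster in each of these 6 mice.

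Markers of other cell types were also read in the myeloid nuclei. Endothelial markers, 10 genes, summed to 452 to 536 CPM there in sham mice and 270 to 338 CPM in I/R mice, and 10 smooth muscle and pericyte markers to 165 to 203 CPM and 90.3 to 114 CPM. Fibroblast markers summed to 1119 to 1268 CPM in sham and 1096 to 1545 CPM in I/R mice, and of the 9 fibroblast markers tested 3 were called higher and 2 lower. The larger moves were of cardiomyocyte markers, all 9 called lower (median log2 difference -1.54), and of B cell markers, which summed to 1009 to 1240 CPM in sham and 276 to 400 CPM in I/R mice with 2 of 3 tested called lower. Bank1, 1 of the B cell markers, is itself among the leading genes of the Cd163-led cluster, so these sums do not measure B cell transcripts alone. None of these marker genes was at 0 over all mice together, and their part in the Jag1 result was not tested.

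Jag1 in all endothelial nuclei was 65.9, 65.8 and 82.9 CPM in sham, 83.7, 103 and 88.3 CPM in I/R and 109, 85.2 and 114 CPM in SBP mice. The I/R mice lay above the sham mice, but the log2 difference of 0.36 ± 0.16 was not called (limma, adjusted p = 0.264). The change in endothelial minus that in myeloid nuclei was -1.46 ± 0.31 (limma on paired differences, adjusted p = 0.0357), the only call among the 52 differences between types that were tested for the members. In the same pair of types 331 of 10389 genes were called. The call was lost in 7 of 9 fits that left out a mouse.

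Notch3 in fibroblast nuclei was 90.9, 92.8 and 116 CPM in sham, 70.5, 43.6 and 29.9 CPM in I/R and 37.7, 56.4 and 38.0 CPM in SBP mice. Every I/R and SBP mouse lay below every sham mouse. Notch3 fell by 1.12 ± 0.27 on the log2 scale from sham to I/R (limma, adjusted p = 0.0231), in a cell type in which 4.76% of 13069 genes were called lower and 11.5% in either direction. The call was lost, with an unchanged direction, when sham replicate 1 (log2 -1.17, adjusted p = 0.0557), sham replicate 3 (-1.02, 0.101) or I/R replicate 2 (-1.11, 0.0712) was left out. Without I/R replicate 1 the log2 difference was -1.45 with an adjusted p of 0.00209.

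The makeup of the fibroblasts moved with the same comparison. A cluster led by D630003M21Rik and Kcnip1 held 82.2% to 87.3% of fibroblasts in sham, 1.00% to 24.9% in I/R and 9.58% to 20.2% in SBP mice. A cluster led by Lvrn held 12.4% to 17.4% in sham, 41.6% to 90.3% in I/R and 66.6% to 72.9% in SBP mice, and a cluster led by the matrix genes Tnc and Postn held 0.203% to 0.318%, 8.66% to 33.4% and 9.64% to 21.3%. As in the myeloid nuclei, the groups were clustered together and these shares describe the clustering.

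Notch3 was not called within the Kcnip1 cluster or within the Lvrn-led cluster, but was called over the nuclei outside the Tnc-led cluster. In the Kcnip1 cluster Notch3 was 112, 105 and 142 CPM in sham, 60.6, 12.2 and 111 CPM in I/R and 29.2, 40.8 and 32.8 CPM in SBP mice. The SBP mice lay below the sham mice there, and the I/R mice overlapped with both. The I/R values there came from 362, 44 and 17 nuclei, and the mouse with 17 nuclei was left out of the fit (I/R against sham, log2 -2.07 ± 0.53, limma, adjusted p = 0.153). In the Lvrn-led cluster Notch3 was 14.2, 70.3 and 22.3 CPM in sham, 24.3, 24.0 and 17.3 CPM in I/R and 26.4, 34.7 and 27.5 CPM in SBP mice. All groups overlapped there, with sham mouse 2 apart from the other 8 mice, and the log2 difference between I/R and sham was -0.38 ± 0.45 (limma, adjusted p = 0.722). Outside the Tnc-led cluster Notch3 was 88.2, 92.2 and 114 CPM in sham, 34.9, 23.2 and 18.7 CPM in I/R and 26.6, 34.8 and 28.3 CPM in SBP mice. The groups with ischemia were apart from sham there, and the log2 difference between I/R and sham was -1.93 ± 0.22 (limma, adjusted p = 0.00206). In the Tnc-led cluster, where sham mice had 3 or 5 nuclei and no Notch3 UMI, Notch3 was 156, 108 and 100 CPM in I/R and 92.1, 128 and 101 CPM in SBP mice, above the Lvrn-led cluster of the same mouse in all 6.

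Jag1 in all fibroblasts was 56.2, 74.1 and 95.4 CPM in sham, 77.9, 39.6 and 51.2 CPM in I/R and 60.6, 90.9 and 65.9 CPM in SBP mice, with overlap between all groups and no call (I/R against sham, log2 -0.44 ± 0.26, limma, adjusted p = 0.344). Without I/R replicate 1 the other I/R mice lay below the sham mice (-0.71, adjusted p = 0.0862), while the difference was -0.23 without I/R replicate 2 (adjusted p = 0.698) and -0.27 without sham replicate 3 (adjusted p = 0.671). Within the Lvrn-led cluster it was 110, 106 and 117 CPM in sham, 57.4, 35.5 and 47.6 CPM in I/R and 58.5, 78.6 and 64.0 CPM in SBP mice. Both groups with ischemia lay below sham in that cluster, and Jag1 passed the test there between I/R and sham (log2 -1.26 ± 0.21, limma, adjusted p = 0.0204) but not between SBP and sham (-0.73 ± 0.21, adjusted p = 0.180).

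Smooth muscle and pericyte markers moved with Notch3 in fibroblasts: their 10 genes summed to 282 to 374 CPM in sham, 185 to 256 CPM in I/R and 230 to 282 CPM in SBP mice, with none at 0 over all mice together. Of the 9 tested, 3 were called lower and none higher between I/R and sham (median log2 difference -0.53). Between SBP and sham none was called (-0.41). Cardiomyocyte markers moved further, from 6190 to 7431 CPM in sham to 1806 to 2858 CPM in I/R and 2038 to 2821 CPM in SBP mice, and all 9 were called lower in fibroblasts between I/R and sham (median log2 difference -1.45). Myeloid markers summed to 331 to 629, 513 to 963 and 412 to 603 CPM, and 4 of 13 tested were called higher between I/R and sham. In the Kcnip1 cluster the smooth muscle and pericyte markers summed to 320 to 419, 134 to 314 and 179 to 351 CPM, in the Lvrn-led cluster to 184 to 242, 157 to 246 and 201 to 243 CPM, and in the Tnc-led cluster to 331 to 430 CPM in I/R and 418 to 470 CPM in SBP mice. The part of these markers in the Notch3 result was not tested. Notch3 also had lower values in I/R mice in cardiomyocyte nuclei, where it was 13.4, 13.1 and 13.3 CPM in sham and 8.16, 4.74 and 6.86 CPM in I/R mice. The I/R and sham mice did not overlap there, but the log2 difference of -0.94 ± 0.23 was not called (limma, adjusted p = 0.104). It was called without I/R replicate 1 (-1.09, adjusted p = 0.0276) and with typing by marker score (-1.06, adjusted p = 0.0370). In the other 18 settings not restricted to a cluster it was not called. Over all of these settings the log2 difference ran from -1.09 to -0.72, with an adjusted p of up to 0.389 (limma). Within the cardiomyocyte cluster led by Gm17428, that of the sham mice, the difference was -0.51 ± 0.34 (adjusted p = 0.630, a fit without the I/R and the SBP mouse with under 20 nuclei), and within the cluster led by Fstl4, that of most other mice, 0.15 ± 0.86 (adjusted p = 0.942). Of the smooth muscle and pericyte markers, 9 were tested in cardiomyocyte nuclei between I/R and sham. Their median log2 difference was -0.34 with none called, and their part was not tested. In smooth muscle and pericyte nuclei, 4 to 41 a mouse and not tested, Notch3 was 508, 813 and 680 CPM in sham, 1393, 768 and 576 CPM in I/R and 748, 764 and 576 CPM in SBP mice. These groups overlapped.

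**Figure D3:**
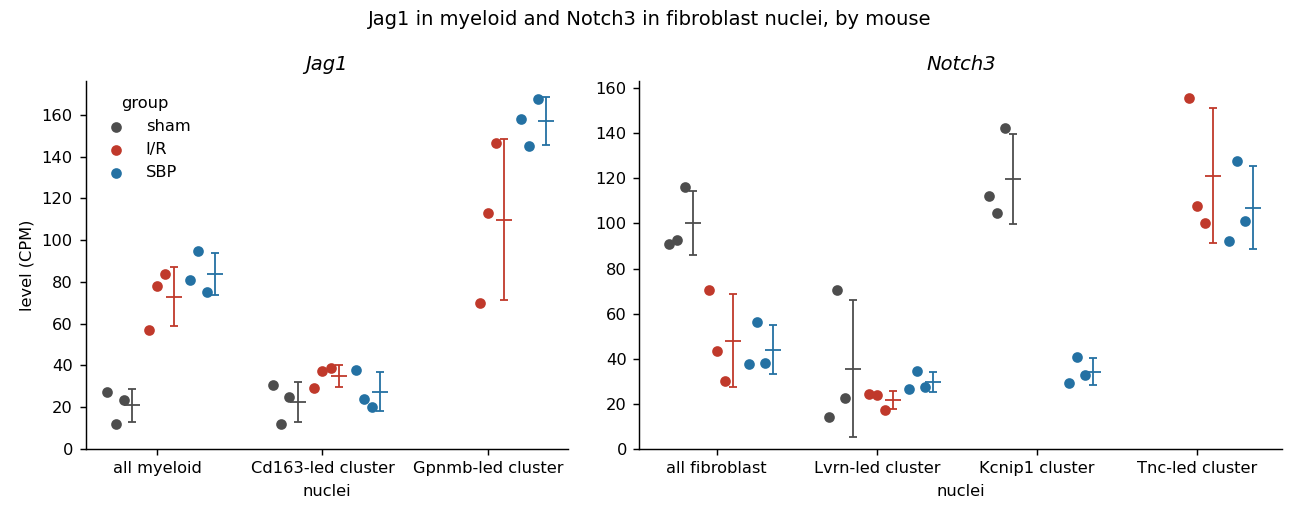
Level in CPM of Jag1 in all myeloid nuclei and in the Cd163-led and Gpnmb-led clusters, and of Notch3 in all fibroblast nuclei and in the Lvrn-led, Kcnip1 and Tnc-led clusters, with a point for each mouse and a bar with its error for the mean ± SD of a group (sham, I/R, SBP). Groups with a mouse of under 20 nuclei, such as I/R in the Kcnip1 cluster, are not drawn. Sham and I/R are apart for Jag1 over all myeloid nuclei and for Notch3 over all fibroblasts, and overlap for Jag1 within the Cd163-led and for Notch3 within the Lvrn-led cluster.

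In capillary nuclei 7 of the 9 members tested had a lower fitted level in I/R than in sham mice (median log2 difference -0.50, against -0.02 over all genes tested there), and none was called. Dll4 was 73.8, 48.9 and 52.2 CPM in sham, 34.1, 8.34 and 24.6 CPM in I/R and 21.7, 24.0 and 20.1 CPM in SBP mice, from 355 UMIs over all 9 mice. Each I/R and each SBP mouse lay below each sham mouse, from 58.3 ± 13.6 CPM in sham to 22.3 ± 13.0 CPM in I/R. The log2 difference of -1.52 ± 0.39 between I/R and sham missed the threshold (limma, adjusted p = 0.0502), where 1.96% of 10259 genes were called lower. Dll4 passed it without I/R replicate 1 (log2 difference -1.92, adjusted p = 0.00534), was at -0.96 without I/R replicate 2 (adjusted p = 0.0909), and passed in 6 of the settings that kept every mouse, among them voom weights (0.0399) and median-of-ratios scaling (0.0495), and its adjusted p ran from 0.00534 to 0.175 over the settings tried.

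Dll1 in capillary nuclei was 22.6, 18.9 and 15.1 CPM in sham and 13.6, 3.13 and 6.71 CPM in I/R mice, without overlap. Dll1 gave 138 UMIs there over all 9 mice, so its lowest values rest on few UMIs. Its log2 difference of -1.34 ± 0.43 was not called (limma, adjusted p = 0.101), and without I/R replicate 1 it was -1.80 (adjusted p = 0.0187), and without I/R replicate 2 -0.89 (adjusted p = 0.359). Jag2 in capillary nuclei was 125, 117 and 138 CPM in sham and 84.4, 102 and 82.0 CPM in I/R mice, also without overlap and not called (log2 -0.50 ± 0.17, limma, adjusted p = 0.119).

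Markers of other cell types moved with these capillary values. In capillary nuclei the 9 cardiomyocyte markers summed to 13447 to 13865 CPM in sham and 4294 to 7168 CPM in I/R mice, and 14 myeloid markers to 357 to 508 CPM and 655 to 1114 CPM, with none at 0 over all mice together. The 10 endothelial markers summed to 7954 to 9539 CPM in sham and 8591 to 10632 CPM in I/R mice, and none of them was called in either direction. The part of these shifts in the ligand values was not tested.

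In arterial nuclei Jag2 had higher values in I/R than in sham mice. It was 152, 217 and 167 CPM in sham, 291, 297 and 257 CPM in I/R and 402, 251 and 341 CPM in SBP mice. All mice with ischemia lay above the sham mice, but neither the difference of I/R from sham (log2 0.67 ± 0.27, limma, adjusted p = 0.230) nor that of SBP from sham (0.88 ± 0.27, adjusted p = 0.128) was called, and with typing by marker score they were 0.39 and 0.31 (adjusted p = 0.467 and 0.682). The Jag2 change in capillary minus that in arterial nuclei was -1.16 ± 0.30 (limma, unadjusted p = 0.00289, adjusted p = 0.493), a comparison added after the values were seen. Arterial Jag1 was 442, 423 and 485 CPM in sham, 502, 645 and 502 CPM in I/R and 744, 421 and 598 CPM in SBP mice. The I/R mice lay above the sham mice and the SBP mice overlapped with both (I/R against sham, log2 0.28 ± 0.24, limma, adjusted p = 0.608). Arterial Dll4 was 126, 130 and 75.3 CPM in sham and 145, 92.2 and 75.8 CPM in I/R mice, which overlapped. In these nuclei the median log2 difference of all genes tested was 0.15 for I/R and 0.17 for SBP against sham. The 9 cardiomyocyte markers summed to 7829 to 9888 CPM in sham, 2684 to 4718 CPM in I/R and 3443 to 4350 CPM in SBP mice, with 3 called lower for I/R and 4 for SBP, and the part of these shifts was not tested.

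**Figure D4:**
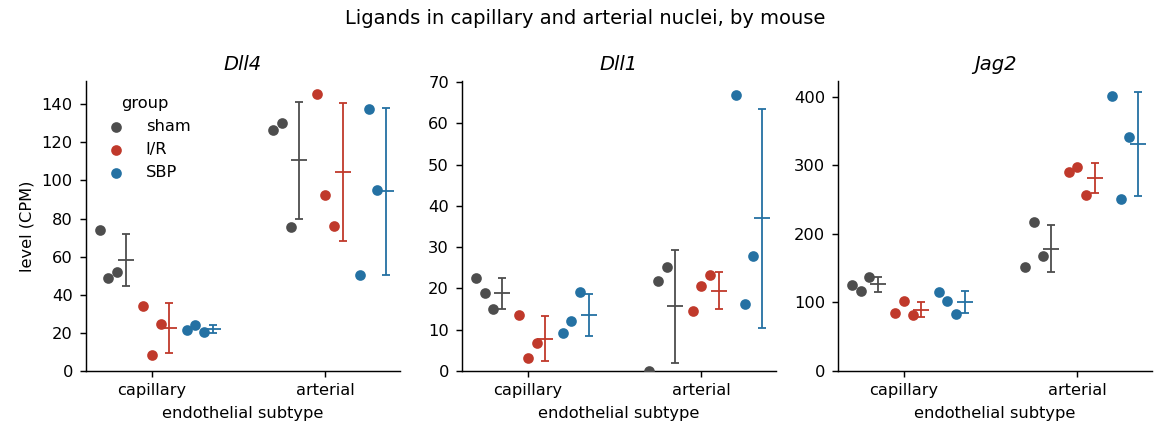
Level in CPM of Dll4, Dll1 and Jag2 in capillary and in arterial nuclei, with a point for each of 9 mice by group and a bar with its error for the mean ± SD. In capillary nuclei the 3 I/R mice lie below the 3 sham mice for each of the 3 ligands, and in arterial nuclei Jag2 lies the other way.

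Receptors other than Notch3 were not called between I/R and sham in any type. Notch1 in myeloid nuclei was 60.7, 30.9 and 47.3 CPM in sham and 51.8, 85.1 and 71.0 CPM in I/R mice, which overlapped (log2 0.59 ± 0.25, limma, adjusted p = 0.123), and it was called (0.66, adjusted p = 0.0495) when nuclei were typed by marker score. Without I/R replicate 1 the groups did not overlap, and the difference was 0.79 (adjusted p = 0.0528), while without sham replicate 2 it was 0.34 (adjusted p = 0.388). Notch1 in endocardial nuclei was 289, 253 and 240 CPM in sham and 233, 302 and 178 CPM in I/R mice, and Notch1 in capillary nuclei was 127, 116 and 134 CPM against 123, 116 and 120 CPM. In both subtypes the groups overlapped, and the log2 differences were -0.16 ± 0.23 and -0.07 ± 0.15. Notch4 in capillary nuclei was 164, 127 and 141 CPM in sham and 74.2, 145 and 126 CPM in I/R mice, and overlapped (log2 -0.37 ± 0.22, and -0.08 without I/R replicate 1, limma, adjusted p = 0.424 and 0.863). Notch2 in myeloid nuclei, its largest pool, was 396, 321 and 410 CPM in sham and 361, 476 and 373 CPM in I/R mice, a log2 difference of 0.10 ± 0.16.

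The Hey targets were not called in any type or contrast, and 1 of their tested pairs, Hey2 in fibroblasts between I/R and sham, had an unadjusted p under 0.05. Of all genes tested in that type and contrast, 25.4% reached this level. Hey1 in arterial nuclei was 63.1, 54.2 and 109 CPM in sham, 109, 154 and 99.2 CPM in I/R and 109, 113 and 95.0 CPM in SBP mice. The groups overlapped, through a sham mouse at 109 CPM, and the log2 difference between I/R and sham was 0.71 ± 0.37 (limma, adjusted p = 0.385). Hey2 in cardiomyocyte nuclei was 6.42, 12.2 and 10.7 CPM in sham, 6.95, 11.0 and 11.0 CPM in I/R and 6.48, 14.0 and 4.92 CPM in SBP mice, with overlap throughout and a log2 difference of 0.00 ± 0.35 between I/R and sham. Hey2 in fibroblasts was 5.35, 4.32 and 3.15 CPM in sham and 0.959, 1.41 and 3.59 CPM in I/R mice, with overlap (log2 -0.90 ± 0.40, limma, adjusted p = 0.186).

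The rest of the pathway was read from a list of 50 other Notch genes, of which 49 were in the tables and 269 pairs of gene and type could be tested. Between I/R and sham 15 pairs were called, 10 higher and 5 lower. That is 5.58% of the pairs tested, near the 5.92% of all pairs. Of the 15, 11 lay in myeloid nuclei, where 38 of the list's genes were tested (28.9%, against 17.7% of all genes there). Among the proteases that cut the receptor, Adam10, Adam17, Furin and Psen2 rose in myeloid nuclei and Aph1b fell. The call of Aph1b was lost without sham replicate 1, sham replicate 3 or I/R replicate 2, and that of Adam17 without sham replicate 1 or I/R replicate 2. Furin, which makes the first cut of the receptor during its maturation, went from 48.6 ± 3.91 CPM in sham to 127 ± 30.5 CPM in I/R mice (log2 1.34 ± 0.19, limma, adjusted p = 0.000769). Psen2, a catalytic subunit of gamma-secretase, went from 24.9 ± 2.24 to 70.7 ± 15 CPM (log2 1.45 ± 0.24, adjusted p = 0.00160), and Adam10, which cuts after ligand binding, from 147 ± 3.41 to 225 ± 19.3 CPM (0.61 ± 0.14, adjusted p = 0.0118). For all 3 genes the I/R mice lay above the sham mice.

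Of 11 genes of the nuclear complex, Spen, a corepressor partner of RBPJ, rose in myeloid nuclei from 64.7 ± 4.73 to 130 ± 20.9 CPM (log2 0.99 ± 0.17, limma, adjusted p = 0.00195), and Rbpj and Maml2 fell. Rbpj is itself among the leading genes of the Cd163-led cluster. Numb, the receptor inhibitor, rose by 0.62 ± 0.15 and Neurl1a, a ubiquitin ligase for ligands, fell by 1.83 ± 0.43 on the log2 scale. Numb lost its call without sham replicate 1 (adjusted p = 0.0568) and Neurl1a without sham replicate 3 (0.0525). Rbpj was not called without sham replicate 1, sham replicate 3 or I/R replicate 2, and Maml2 was not called without sham replicate 3 or I/R replicate 2. In fibroblasts the coactivator Maml3 rose by 0.83 ± 0.20, Dtx4 rose, and Hes1, a Notch target of the Hes family, fell from 91.8 ± 22.2 to 40.4 ± 2.01 CPM (log2 -1.14 ± 0.24, limma, adjusted p = 0.0112). In lymphatic nuclei Adam10 rose (limma, adjusted p = 0.0472). This call, like that of Dtx4 in fibroblasts, was lost without sham replicate 1, sham replicate 3 or I/R replicate 2. When the myeloid nuclei were restricted to the Cd163-led cluster, the 15 calls over all types became 4, and those 4 lay in fibroblast and lymphatic nuclei. Maml3 in fibroblasts was not called without sham replicate 1 (adjusted p = 0.0655) or I/R replicate 2 (0.0882), with only these groups in the fit (0.0548), within the Lvrn-led cluster (log2 1.08, adjusted p = 0.0526) or within the Kcnip1 cluster (log2 0.073, adjusted p = 0.873). Hes1 was not called within the Lvrn-led fibroblasts (log2 -0.67, adjusted p = 0.256), within the Kcnip1 cluster, where the difference turned to 0.20 (adjusted p = 0.789), or outside the Tnc-led cluster (-0.93, adjusted p = 0.0768). Among the 7 other ligands on the list and the 5 glycosylation genes no tested pair was called, and most pairs of the ligands had too few UMIs to be tested.

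SBP and I/R mice, the comparison that addresses the pill, gave no called member pair among 54 (limma), and with voom weights the count was also 0. Over all genes 1 of 77264 pairs was called (0.00129%). An unadjusted p under 0.05 was reached by 3 member pairs, Jag1 in endocardial and Notch3 and Notch2 in capillary nuclei. By type, 2.14% to 5.16% of all genes tested reached it. The groups did not overlap in 2 of the 54 pairs (3.70%), against 8.55% of all pairs.

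Jag1 in endocardial nuclei was 49.3, 43.6 and 31.3 CPM in I/R and 82.4, 62.2 and 84.4 CPM in SBP mice, with sham mice at 38.3, 61.8 and 53.0 CPM. Every SBP mouse lay above every I/R mouse, and by a small margin above every sham mouse. The log2 difference between SBP and I/R was 0.88 ± 0.25 (limma, adjusted p = 0.902, with 0.393 to 1.00 over the settings tried), so it failed the correction. The lowest of these p-values was that without I/R replicate 1 (1.02). The endocardial nuclei held 14 myeloid markers at a sum of 529 to 835 CPM in I/R and 393 to 512 CPM in SBP mice, and their part was not tested.

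Notch3 in capillary nuclei was 20.5, 11.5 and 8.20 CPM in I/R and 29.9, 21.0 and 27.5 CPM in SBP mice, with sham mice at 25.6, 30.6 and 17.0 CPM. The SBP mice lay above the I/R mice, narrowly at 21.0 against 20.5 CPM, and the log2 difference of 0.99 ± 0.33 was not called (limma, adjusted p = 0.972), nor was that of 1.33 without I/R replicate 1 (adjusted p = 0.448). Mean Notch3 over all mice was alike in capillary (21.3 CPM), arterial (21.2 CPM) and lymphatic nuclei (21.8 CPM). In capillary nuclei 6 smooth muscle and pericyte markers were tested, with a median log2 difference of 0.18 between SBP and I/R and none called. Their part was not tested. Notch2 in capillary nuclei was 62.3, 63.6 and 43.2 CPM in I/R and 42.3, 45.1 and 27.5 CPM in SBP mice, which overlapped (log2 -0.56 ± 0.25, limma, adjusted p = 0.972). With a mouse left out this Notch2 difference ran from -0.73 to -0.33. Of the values that were lower in I/R than in sham capillaries, the log2 difference between SBP and I/R was 0.17 ± 0.39 for Dll4, 0.85 ± 0.43 for Dll1 and 0.16 ± 0.17 for Jag2. In myeloid nuclei Jag1 differed by 0.21 ± 0.27 and in fibroblasts Notch3 by -0.06 ± 0.27 between SBP and I/R. Within the Gpnmb-led myeloid cluster the log2 difference of Jag1 was 0.57 ± 0.25, with the higher mean in SBP mice (limma, unadjusted p = 0.0461, adjusted p = 0.999). In the 50 other pathway genes no pair was called between SBP and I/R. Of their 269 pairs, 16 had an unadjusted p under 0.05, a level that 2.14% to 5.16% of all genes reached by type.

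**Figure D5:**
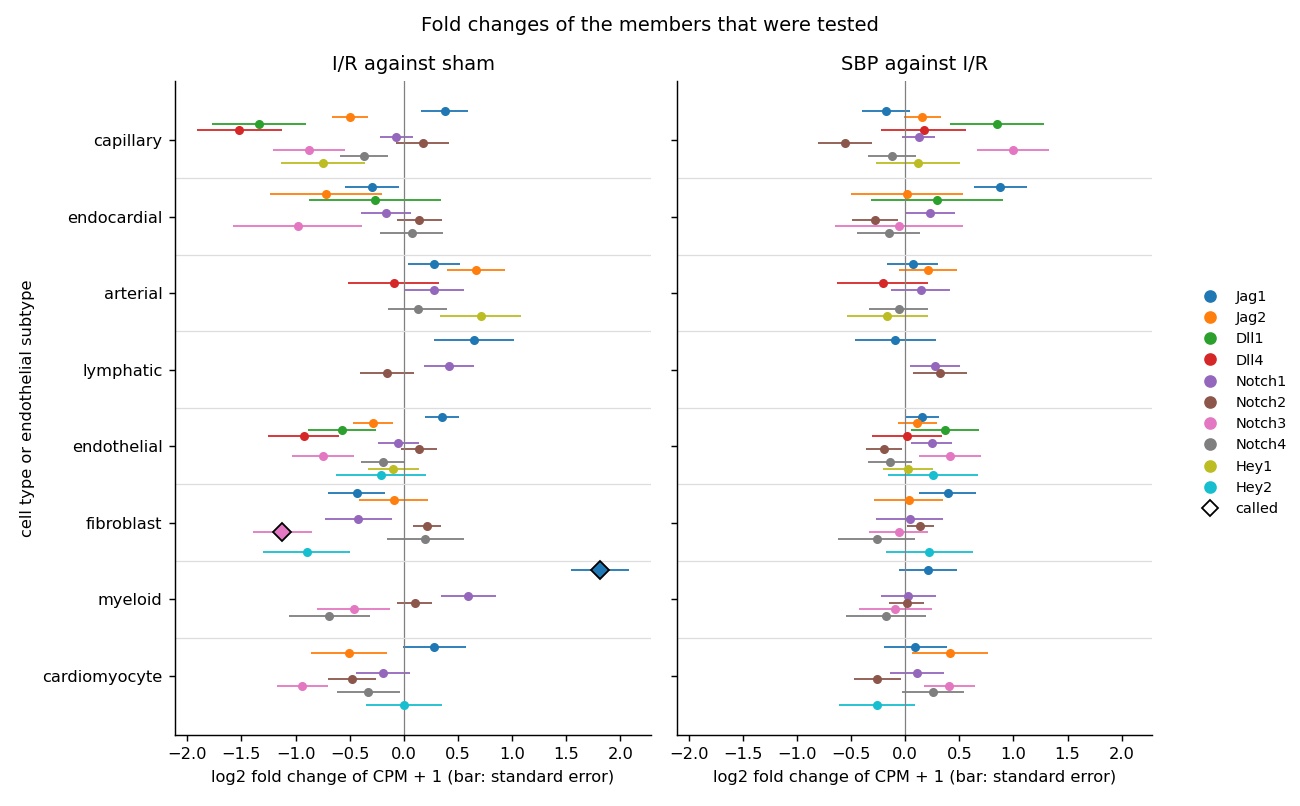
Log2 fold change ± SE of the tested members in each cell type and endothelial subtype, for I/R against sham and for SBP against I/R, with diamonds for pairs that passed the test. The diamonds are Jag1 in myeloid nuclei (1.82) and Notch3 in fibroblasts (-1.12) for I/R against sham, and SBP against I/R has none.

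SBP and sham mice differed in the pairs that also separated I/R from sham, and the sham mice are the same in both comparisons. Jag1 in myeloid nuclei was higher in SBP mice by 2.02 ± 0.27 on the log2 scale (limma, adjusted p = 0.000674), where 7.26% of genes were called higher, and Notch3 in fibroblasts fell by 1.18 ± 0.27 (adjusted p = 0.0270), where 2.22% were called lower. These were the 2 calls among 54 pairs, against 3.75% of all pairs. An unadjusted p under 0.05 (limma) was reached by 14 member pairs, and by 10.9% to 28.5% of all genes tested, depending on the type. The groups did not overlap in 17 of the 54 pairs (31.5%), 6 higher and 11 lower in SBP, against 24.6% of all pairs. Within the Cd163-led cluster the Jag1 difference between SBP and sham was 0.32 ± 0.35 (adjusted p = 0.737). That of Notch3 was 0.05 ± 0.45 (adjusted p = 0.978) within the Lvrn-led cluster and -1.78 ± 0.48 (adjusted p = 0.328) within the Kcnip1 cluster, and it was called outside the Tnc-led cluster (-1.68 ± 0.22, adjusted p = 0.00576). The Notch3 call over all fibroblasts was lost without any of the sham mice (adjusted p 0.0573 to 0.124) and without SBP replicate 1 (0.113) or 3 (0.0972).

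Some further pairs were apart between SBP and sham mice without a call. Dll4 in capillary nuclei, whose values are given above, differed by -1.35 ± 0.39 (log2, limma, adjusted p = 0.0934), and it was called without I/R replicate 1 (adjusted p = 0.0283) or 2 (0.00617), with only these groups in the fit (0.00190) and with typing by marker score (0.0488). In the other 16 of 20 settings it was not called, and its adjusted p reached 0.313 (limma). The I/R mice are outside this contrast, and without I/R replicate 1 or 2 the log2 difference stayed at -1.35 and -1.34. Notch2 in cardiomyocyte nuclei was 124, 83.9 and 87.4 CPM in sham, 96.8, 56.6 and 61.2 CPM in I/R and 62.4, 55.2 and 56.8 CPM in SBP mice. The SBP mice lay below the sham mice and the I/R mice overlapped with both groups (SBP against sham, log2 -0.73 ± 0.22, limma, adjusted p = 0.195), and it was called with only these groups in the fit (-0.74, adjusted p = 0.0499). Within the Fstl4-led cardiomyocyte cluster, which held 5.55% to 12.6% of cardiomyocytes in sham and 79.2% to 99.1% in SBP mice, Notch2 was 95.1, 68.9 and 64.4 CPM in sham and 67.2, 57.6 and 62.7 CPM in SBP mice, with overlap (log2 -0.26 ± 0.25, adjusted p = 0.588). Within the Gm17428-led cluster it was 182, 121 and 125 CPM in sham and 74.5 and 65.6 CPM in the 2 SBP mice with at least 20 nuclei, apart but not called (adjusted p = 0.447). Notch2 in fibroblasts was 119, 114 and 121 CPM in sham, 127, 145 and 141 CPM in I/R and 157, 140 and 158 CPM in SBP mice, so that both groups with ischemia lay above sham (SBP against sham, log2 0.36 ± 0.13, limma, adjusted p = 0.138). The Notch2 change in cardiomyocyte minus that in fibroblast nuclei between SBP and sham was -1.09 ± 0.26 (limma, unadjusted p = 0.00158, adjusted p = 0.0600), likewise an added comparison. Notch1 in lymphatic nuclei was 173, 173 and 117 CPM in sham, 217, 167 and 232 CPM in I/R and 255, 219 and 265 CPM in SBP mice, with SBP above sham (log2 0.69 ± 0.23, limma, adjusted p = 0.173). Of the other pathway genes 8 pairs were called between SBP and sham, 7 in myeloid nuclei (Furin, Psen2, Adam10, Spen and Maml3 higher, Aph1b and Neurl1a lower) and Maml3 in fibroblasts higher. The 8 pairs are 2.97% of those tested, below the 3.75% of all pairs, and in myeloid nuclei the 7 of 38 (18.4%) stand against 12.7% of all genes there. None of the 7 myeloid calls was kept within the Cd163-led cluster, where the log2 differences were 0.13 for Furin (limma, adjusted p = 0.859), 0.09 for Psen2, 0.23 for Adam10, 0.44 for Spen, 0.54 for Maml3, -0.41 for Aph1b and -0.58 for Neurl1a. Over the settings not restricted to a cluster, which include the fits that left out a mouse, Aph1b lost its call in 11 of 20, Neurl1a in 9 and Adam10 in 5. Maml3 in fibroblasts was not called within the Lvrn-led (log2 1.27, adjusted p = 0.0662) or the Kcnip1 cluster (0.82, adjusted p = 0.237), against a difference of 1.03 over all fibroblasts.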

How the data were processed

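Single-nucleus transcripts of 9 mouse hearts (3 sham, 3 I/R, 3 SBP, grouped by the sample titles) were analysed. The deposited tables hold, for each gene in each nucleus, the natural log of 1 plus its UMIs scaled to a total of 10000. As the study's methods describe, the authors trimmed reads (fastp), obtained UMIs from Cell Ranger with the mm10 genome, evened out depth between samples, removed poor nuclei and mitochondrial genes and normalized with Seurat, and they used DESeq2 for their own comparisons. Evening out depth lowers counts and so weakens tests of low genes. The study states more nuclei than the tables used here hold.

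After the log was undone, the lowest value in each nucleus was set to 1 UMI, which gave whole numbers, within 0.1 UMI, for at least 99.9995% of values in every sample. Scrublet, run in Scanpy 1.11.5 on each library, marked 123 nuclei (0.250%) as doublets, which were removed, and a share under 0.5% was taken to mean that the caller had not worked. Doublets may therefore remain in the main results. As an alternative, the 2168 nuclei (4.41%) with the highest doublet scores were removed as well. Nuclei were clustered (own code in Python 3.11.15 with leidenalg 0.10.2) on 2000 variable genes without the 10 members. This used 30 principal components, 20 neighbours from an exact search and resolution 0.6. Endothelial nuclei were clustered again with 20 components and resolution 0.2. So was 1 cluster with a marker score over 1 for a second type. Naming a cluster required 3 or more markers, each seen in over 10% of its nuclei.

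UMIs were summed per mouse and cell type, and levels are given as CPM of that sum. Tests used limma 3.58.1 (R 4.3.3) on log2(CPM + 1) with TMM scaling over all 3 groups in 1 fit per cell type, without covariates. The deposited unit being a natural log and not a count, no count model was used. Mice with under 20 nuclei of a type were left out of its fit. Genes needed the CPM of 10 UMIs in the median library in at least 3 samples and 15 UMIs in all. p-values are two-sided and adjusted by Benjamini-Hochberg over the genes of a type and contrast. The thresholds were an adjusted p of 0.05 and a log2 fold change beyond 0.25, after the study's methods. Values of 3 mice a group measure the spread between mice, and intervals and limits of a count of 0 (3 UMIs) cover counting error only.

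The members, marker genes and pathway lists were chosen with earlier results of these data known. Named were the members, the called pathway genes (at most 8 a contrast, by adjusted p, with others listed by name after their calls were seen, and not every called gene reported here) and the 3 genes nearest to each member in pattern, at 20 CPM or more in a type. Differences between cell types were tested on the per-mouse difference of log2 values, for 4 pairs as planned and 3 added ones. Alternatives left out each mouse and changed scaling, pseudocount, filter, groups in the fit, doublets, cell typing and weights.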

Additional observations from a re-analysis of the deposited data

Results flagged for a closer look

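The change of Jag1 from sham to I/R differed between endothelial and myeloid nuclei by a test of the difference itself: endothelial minus myeloid was -1.46 ± 0.31 on the log2 scale (limma, adjusted p = 0.0357). Jag1 went from 71.5 ± 9.88 to 91.6 ± 9.99 CPM in endothelial nuclei and from 20.8 ± 7.87 to 72.9 ± 14.2 CPM in myeloid nuclei (SD, n = 3 mice a group), and in both types the 3 I/R mice lay above the 3 sham mice. The call was kept in the fits without sham replicate 1 or SBP replicate 2 and lost in the other 7 fits that left out a mouse, with adjusted p-values of 0.0347 to 0.106 over the 9 fits.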

How the results depend on the processing

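The call of Jag1 in myeloid nuclei was kept under each alternative not restricted to a cluster, for I/R and for SBP against sham. The 2 member calls between I/R and sham ranged from 1 to 8 with a mouse left out (8 if I/R replicate 1 was omitted, and 1 if sham replicate 1 or 3 or I/R replicate 2 was). They became 4 with nuclei typed by marker score, and 1 within the Cd163-led or the Kcnip1 cluster. Settings restricted to or leaving out a cluster were chosen after seeing the data. Shares of all genes called are given for the main fits only, so counts under other settings have no background beside them. The 2 between SBP and sham ranged from 1 to 3 with a mouse left out, and were 5 with only these groups in the fit and 1 within the Cd163-led, Lvrn-led or Kcnip1 cluster. The 15 pathway calls between I/R and sham ranged from 7 to 14 with a mouse left out (7 if sham replicate 1 was omitted, and 8 if sham replicate 3 or I/R replicate 2 was) and were 4 within the Cd163-led cluster. The 8 between SBP and sham ranged from 4 to 11 with a mouse left out (4 if SBP replicate 2 was omitted, and 5 if sham replicate 1 or 3 or SBP replicate 3 was), and were 12 with only these groups in the fit and 1 within the Cd163-led cluster. The Jag1 difference between endothelial and myeloid nuclei ranged from -1.73 to -1.19 with a mouse left out. Between SBP and I/R the counts were 0 under every alternative for members and pathway genes. Notch3 in cardiomyocytes turned to 0.15 (I/R) and 0.64 (SBP) against sham within the Fstl4-led cluster. In fibroblasts 2 named values changed direction: Notch3 between SBP and sham, to 0.049 within the Lvrn-led cluster, and Hes1 between I/R and sham, to 0.20 within the Kcnip1 cluster. The cause of these shifts was not tested.

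The deviations of same-numbered mice correlated at r from -0.318 to 0.297, over 0.1 in 11 of 36 pairs, and the replicate number was not used to pair the samples. All 12 pairs of replicate 3 were above 0, and in fibroblasts the 3 pairs of sham and SBP mice were all over 0.1 (0.124 to 0.137), where the call of Notch3 was kept with the block (log2 -1.18, adjusted p = 0.0499). With the replicate block the Jag1 difference of -1.46 was not called (adjusted p = 0.0640), the member calls were 3 between I/R and sham, where Dll4 in capillary nuclei was added, and 2 between SBP and sham, and the pathway calls were 14 and 8.

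With nuclei typed by marker score, which gave 84.5% of nuclei the same type, the arterial levels were lower, at 265 CPM for Jag1, 164 CPM for Jag2, 67.2 CPM for Dll4, 195 CPM for Notch1, 189 CPM for Notch4 and 51.9 CPM for Hey1, and Notch3 in smooth muscle and pericyte nuclei was 249 CPM. Median-of-ratios scaling moved the median of all genes by at most 0.0903 (log2). Depth limits Dll1, Dll4, Hey1 and Hey2 most: 26 of 80 pairs of member and type could not be tested, and smooth muscle and pericyte, T cell, B cell and Schwann nuclei, the rarest types, were not tested.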
